A study of Mus musculus with 2 samples.

Results

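The genes described here are 49 homeobox patterning genes that lie outside the Hox clusters, of 21938 protein-coding genes of the GENCODE M21 annotation (mouse build GRCm38). They were listed by name: 6 Iroquois genes, 5 sine oculis homeobox genes, 8 LIM homeodomain genes, 7 paired-like genes, 17 NK-like and related genes and 6 Hox-like genes. Their chromatin was read in DNase-seq, which sequences the ends left where the nuclease DNase I cuts accessible DNA in nuclei. Right cerebral cortex came from 2-month-old B6CASTF1/J males, whose parents were of the strains C57BL/6J and CAST/EiJ. All samples formed 1 group of 2 libraries, replicate 1 from the animal numbered 5 and replicate 2 from the animal numbered 6. Both carry the same donor record in the labels, so the animal numbers alone mark them as separate mice. With 1 group there was no contrast to test, and every value below is a description of these libraries.

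Homeobox genes encode transcription factors that bind DNA through the homeodomain, many of them at sites with a TAAT core. In the embryo they divide the body and the neural tube into regions and cell types, and the genes described here act mainly in the hindbrain, spinal cord, hypothalamus, ventral forebrain, eye, limb, face and kidney. In cells that do not use them, such genes are a textbook target of Polycomb repressive complexes, which mark the CpG islands at their starts with methylated histone H3. CpG islands of most other genes are accessible in nearly every tissue.

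A gene was said to have a promoter peak if a peak of the stricter deposited set lay within 1000 bp of any of its annotated transcript starts. Its neighbourhood was the gene body with 20000 bp on each side. A listed base is one with a deposited false discovery rate under 0.05. A start was called CpG-rich if the 1000 bp around it had a CpG content of at least 0.6 of that expected from its C and G, and a GC content of at least 50%. By this rule 43 of the 49 members had a CpG-rich start. The median CpG ratio was 0.774 for members and 0.627 for all protein-coding genes.

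The sequences just before 3 members' starts are shown because they stand for the outcomes seen: a promoter peak in both libraries (Gsx1), in replicate 1 alone (Irx2) and in neither (Barhl2). Each is the 250 bases before the RefSeq start on GRCm38.p6, 5′ to 3′ on the gene's strand, with every CG in capitals.
Gsx1, chr5:147188446-147188695, plus strand: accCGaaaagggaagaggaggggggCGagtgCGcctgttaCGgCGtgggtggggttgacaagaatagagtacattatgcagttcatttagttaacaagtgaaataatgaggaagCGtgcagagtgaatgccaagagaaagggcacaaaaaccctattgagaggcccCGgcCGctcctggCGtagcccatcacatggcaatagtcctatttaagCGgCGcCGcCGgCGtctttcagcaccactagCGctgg
Irx2, chr13:72628570-72628819, plus strand: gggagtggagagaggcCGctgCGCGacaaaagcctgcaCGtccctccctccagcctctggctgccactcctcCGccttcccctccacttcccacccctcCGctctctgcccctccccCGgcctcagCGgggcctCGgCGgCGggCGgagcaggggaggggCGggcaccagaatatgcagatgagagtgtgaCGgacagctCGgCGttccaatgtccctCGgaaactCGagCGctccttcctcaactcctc
Barhl2, chr5:106458167-106458416, minus strand: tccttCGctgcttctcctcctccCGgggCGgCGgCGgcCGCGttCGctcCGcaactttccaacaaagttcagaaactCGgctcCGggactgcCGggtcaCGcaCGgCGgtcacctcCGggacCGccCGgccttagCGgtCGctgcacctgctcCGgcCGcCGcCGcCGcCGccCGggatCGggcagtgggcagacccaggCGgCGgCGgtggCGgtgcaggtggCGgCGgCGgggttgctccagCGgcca
They held 15, 19 and 36 CG pairs, against a median of 6 in the same stretch of 32851 RefSeq promoters. Barhl2, the richest of the 3 in CG at percentile 97.4 of those promoters, is the one with no peak. The 3 were picked by outcome, so this order does not speak for the other members. Of the members that passed a stricter CpG rule (ratio at least 0.75, GC at least 55%), 52% and 20% had a promoter peak in replicates 1 and 2. The share of all genes under that rule was not counted. The shares of all CpG-rich members were 46.5% and 14.0%. The RefSeq promoter table held 37 of the 49 members. The outcomes are those of the whole gene, within 1000 bp of any of its starts, and not of the stretch shown. The Irx2 stretch itself overlaps no strict peak. Its nearest peaks in replicate 1 were chr13:72628081-72628160 and chr13:72629346-72629469.

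The libraries differed in yield. Replicate 1 had 91818 strict peaks, 56.7 Mb of listed bases and 394531 footprints, and replicate 2 had 75245 strict peaks, 42.6 Mb and 241645 footprints. Read depth is not given in the files. Promoters of cortical excitatory neuron markers had a peak at 7 and 5 of 7 genes in replicates 1 and 2. Markers of tissue next to the cortex and of oligodendrocytes, a glial type of the cortex itself, were also read, since members are known from those places. A promoter peak was found at 4 and 5 of 6 striatal markers, 3 and 3 of 6 markers of thalamus and hypothalamus, 3 and 2 of 7 of the meninges, 4 and 3 of 8 of oligodendrocytes and 1 and 0 of 6 of the choroid plexus. Of all protein-coding genes, 63.4% and 59.3% had one in replicates 1 and 2, so these small counts do not show which tissues were present. The lists for thalamus and hypothalamus and for oligodendrocytes include the members Gbx2 and Nkx6-2, neither of which had a promoter peak. The 1 choroid plexus gene was the member Otx2. The defining choroid gene Ttr had no promoter peak and no strict peak in its neighbourhood in either library, but 185 and 153 bases at its starts were listed in replicates 1 and 2. The part of neighbouring tissue in the values below was not tested.

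The libraries also differed in certain places. At 25 protein-coding genes, 0.114% of all, at least 5% of the neighbourhood was listed in replicate 1 and under 0.5% in replicate 2. The reverse held for 2 genes. Among the 25 were 4 of the 49 members: Irx1, Irx2, Otp and Alx4. The thresholds were chosen after the values were seen, and the cause was not tested. Counts of promoter peaks, sums of peaks and listed bases, and the peaks of replicate 1 alone are also given without these 4 genes.

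A smaller share of members than of all genes was open at the start. A promoter peak was present at 22 of 49 members (44.9%) in replicate 1 and at 6 (12.2%) in replicate 2, a mean of 28.6% ± 23.1 (SD, n = 2). Of all protein-coding genes, 63.4% had one in replicate 1 and 59.3% in replicate 2. Both libraries had a peak at 5 members: Gsx1, Isl2, Lhx8, Barx2 and Six5. Replicate 1 alone had one at 17 members, replicate 2 alone at Msx2, and 26 members had none in either. A lower share can mean fewer cells with an open start or less opening per cell, and in bulk tissue these cannot be told apart. Leaving out Irx1, Irx2, Otp and Alx4 gave 18 and 6 of 45 members. With only the tallest 75245 peaks of replicate 1, as many as replicate 2 has, 14 members (28.6%) had a promoter peak in replicate 1 against 6 in replicate 2. Of all protein-coding genes, 61.7% had one in replicate 1 at that cut, against 59.3% in replicate 2. With the larger deposited peak set, 32 members (65.3%) had one in replicate 1 and 18 (36.7%) in replicate 2, against 68.2% and 65.0% of all protein-coding genes, so in replicate 1 the members' share was then close to that of all genes.

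The gap between members and other genes was wider among CpG-rich starts. Among CpG-rich genes, 20 of 43 members (46.5%) had a promoter peak in replicate 1 and 6 (14.0%) in replicate 2. For all 11242 CpG-rich protein-coding genes the shares were 94.1% and 90.0%. Without Irx1, Irx2, Otp and Alx4 the members' shares were 41.0% and 15.4% of 39. In both libraries together, 624 CpG-rich genes had no promoter peak, and 22 of them (3.53%) were members, although members made up 0.382% of all CpG-rich genes. Of the 6 members without a CpG-rich start, Meox2 and Pitx3 had a peak in replicate 1 and none had one in replicate 2.

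**Figure D1:**
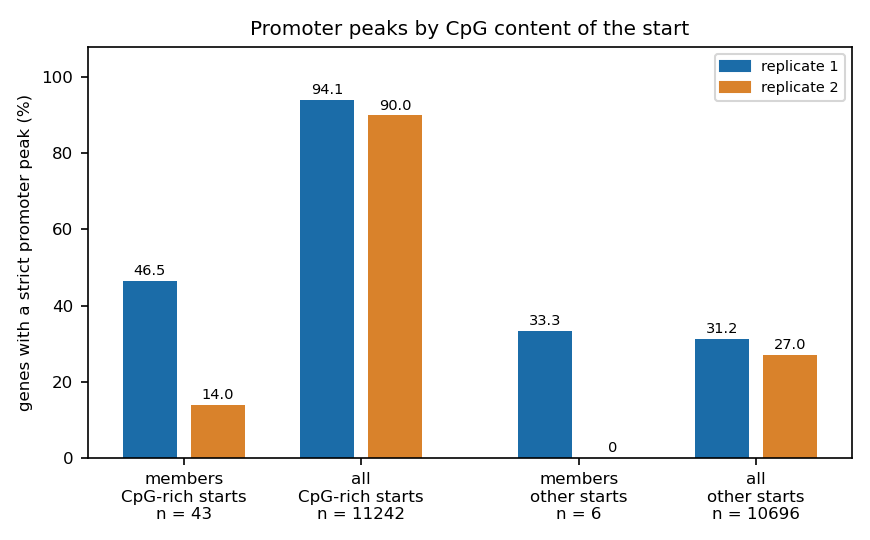
Bars give the percentage of genes with a strict promoter peak in replicate 1 (blue) and replicate 2 (orange), for members and for all protein-coding genes, split by the CpG content of the start. With CpG-rich starts, 46.5% and 14.0% of members stand beside 94.1% and 90.0% of all genes.

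A peak in replicate 1 alone was present at 15 of 43 CpG-rich members and at 496 of all 11242 CpG-rich genes, a far smaller share. Only among genes without a promoter peak in replicate 2 did the shares lie near each other. Of 37 CpG-rich members with no promoter peak in replicate 2, 15 (40.5%) had one in replicate 1. Of all 1120 CpG-rich genes without one in replicate 2, the share was 44.3%.

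Where members had a promoter peak, it was low. Peak height is the authors' signal, and since its scaling is not stated, heights were ranked within each library. The tallest promoter peak of a member had a median height of 0.638 in replicate 1 and 0.461 in replicate 2. Over all protein-coding genes with a promoter peak the medians were 3.02 and 2.17. Barx2, a gene of the Bar family known from muscle and skin, had the tallest, at 2.18 and 1.44, percentiles 35.2 and 30.0 among coding promoters. Six5, which lies beside the myotonic dystrophy gene Dmpk, followed at 1.66 and 1.27, the second of these at percentile 25.1 of replicate 2. No other member's promoter peak reached percentile 15 in either library.

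**Figure D2:**
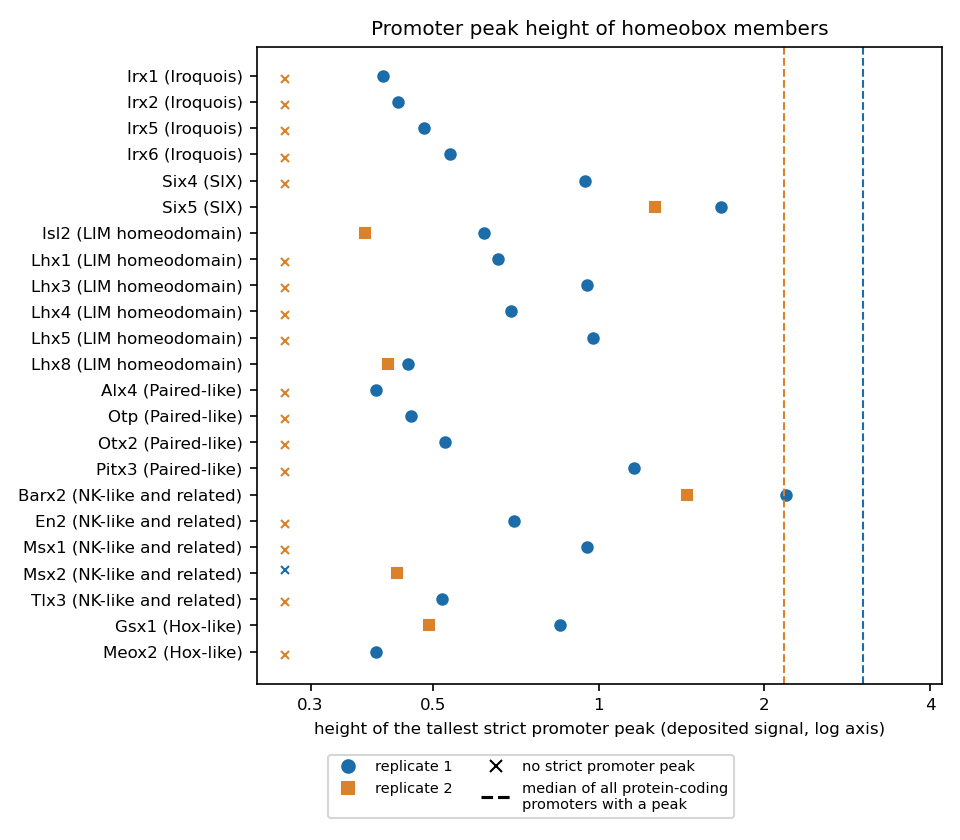
Each row is 1 of the 23 members with a strict promoter peak in either library, and the log axis gives the height of its tallest one in replicate 1 (circles) and replicate 2 (squares), with crosses for no peak. Dashed lines mark the medians of all protein-coding promoters with a peak, 3.02 in replicate 1 and 2.17 in replicate 2, and every member lies left of the line of its own library.

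Iroquois genes, which occur as clusters Irx1, Irx2 and Irx4 on chromosome 13 and Irx3, Irx5 and Irx6 on chromosome 8, pattern the neural tube and the heart. Promoter peaks were present at 4 of 6 in replicate 1 and at 0 in replicate 2. The heights in replicate 1 were 0.407 at Irx1, 0.432 at Irx2, 0.482 at Irx5 and 0.538 at Irx6. Irx3 and Irx4 had neither a promoter peak nor a listed base at their starts in either library. Around all 6 genes there were 37 strict peaks in replicate 1 and 3 in replicate 2. Without Irx1 and Irx2 there were 16 and 3, with promoter peaks at 2 of 4 genes in replicate 1.

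Sine oculis homeobox genes, the vertebrate relatives of a Drosophila eye gene, act in eye, kidney, ear and muscle development. Six4, a muscle and sensory organ gene, had a promoter peak of height 0.945 in replicate 1 and none in replicate 2, and Six5 had one in both. Six2, which keeps kidney progenitors undifferentiated, and Six3 and Six6, which act in the embryonic forebrain and eye, had none. Six2 also had no listed base at its starts in either library. Six6 had 387 listed bases there in replicate 1 and 0 in replicate 2.

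LIM homeodomain genes direct neuron types such as motor and cholinergic neurons, and they were the family most often open in replicate 1. Promoter peaks were present at 6 of 8 (75%) in replicate 1 and 2 of 8 (25%) in replicate 2, against 63.4% and 59.3% of all protein-coding genes. Of its 7 genes with CpG-rich starts, 85.7% and 28.6% had one, against 94.1% and 90.0% of all CpG-rich genes. Lhx8, a gene of basal forebrain cholinergic neurons, had heights of 0.451 and 0.415, and Isl2, a motor neuron gene, 0.620 and 0.376. Replicate 1 alone had peaks at Lhx1 (0.657), Lhx4 (0.695), Lhx3 (0.951) and Lhx5 (0.976). Isl1, used in motor and striatal neurons, and Lhx9, a gonad and thalamus gene, had none. The 5′ end of Isl1 lay in a stretch of 222852 bp without a listed base in replicate 2, whereas it was itself listed in replicate 1, with 292 listed bases at its starts.

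Paired-like members had promoter peaks at 4 of 7 in replicate 1 and 0 of 7 in replicate 2. Pitx3, required for midbrain dopamine neurons, had a height of 1.16, and Otx2, an anterior brain and choroid plexus gene, 0.526. Otp, which specifies hypothalamic neuroendocrine neurons, had 0.457 and the craniofacial gene Alx4 had 0.394. Without Otp and Alx4, 2 of 5 paired-like members had one in replicate 1. The craniofacial gene Alx1, the hindlimb gene Pitx1 and the limb mesenchyme gene Prrx1 had none. Prrx1 nevertheless had 690 and 745 listed bases at its starts, whereas Pitx1 had 0 in both.

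Among the 17 NK-like and related genes, promoter peaks were present at 4 in replicate 1 and at 2 in replicate 2. Besides Barx2, replicate 1 had peaks at the craniofacial gene Msx1 (0.951), the midbrain and hindbrain gene En2 (0.701) and the spinal sensory neuron gene Tlx3 (0.519). Msx2 had a strict promoter peak in replicate 2 alone, at 0.430, but 201 bases at its starts were listed in replicate 1 as well. None was found at Nkx2-1, the ventral forebrain and thyroid gene, or at Nkx6-1, Nkx6-2, Barhl1, Barhl2, Barx1, Dbx1, Dbx2, En1, Tlx1, Vax1 and Vax2. These 12 include progenitor genes of the ventral spinal cord (Nkx6-1, Dbx1, Dbx2), the cerebellar granule neuron gene Barhl1 and the optic stalk gene Vax1.

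Hox-like members had promoter peaks at 2 of 6 in replicate 1 and 1 of 6 in replicate 2. Gsx1, a progenitor gene of the ventral telencephalon, had heights of 0.851 and 0.491 in peaks that overlap the sequence given above. Meox2, a somite and vessel gene, had 0.394 in replicate 1. Gsx2, Gbx1, Meox1 and the thalamus and hindbrain gene Gbx2 had none, and none of these 4 had a listed base at its starts in either library.

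Listed bases are a more inclusive measure than strict peaks. At least 1 listed base near a start was found for 33 of 49 members in replicate 1 and 20 in replicate 2, against 69.2% and 66.1% of protein-coding genes. The members' shares were 67.3% and 40.8%. Among CpG-rich genes the gap was wide in both libraries: 65.1% and 37.2% of members had a listed base, against 97.3% and 95.0% of all CpG-rich genes. None in either library was found at 14 members (28.6%), close to the 30.0% of all protein-coding genes. Among CpG-rich genes the shares were 30.2% of members and 2.61% of all. The 14 were Barx1, Dbx1, En1, Gbx1, Gbx2, Gsx2, Irx3, Irx4, Meox1, Nkx2-1, Nkx6-1, Pitx1, Six2 and Tlx1. A deposited footprint, a short stretch protected from cutting, lay near a start of 31 members (63.3%) in replicate 1 and 13 (26.5%) in replicate 2. For all protein-coding genes the shares were 66.5% and 62.3%. Among CpG-rich genes a footprint was found at 60.5% and 23.3% of members, against 96.5% and 93.0% of all.

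The shape around the start differed too. Within the first 100 bp after the 5′ end, 37.2% of CpG-rich members had a listed base in replicate 1 and 14.0% in replicate 2. The corresponding shares of all CpG-rich genes were 87.6% and 82.5%. From 2000 to 1900 bp upstream, 16.3% and 4.65% of members and 5.21% and 3.43% of all CpG-rich genes had one. In replicate 1 the members thus lay below other CpG-rich genes at the start and above them 2000 bp away. The upstream share of replicate 1 rests on 7 members, and shares by distance were not counted without Irx1, Irx2, Otp and Alx4.

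**Figure D3:**
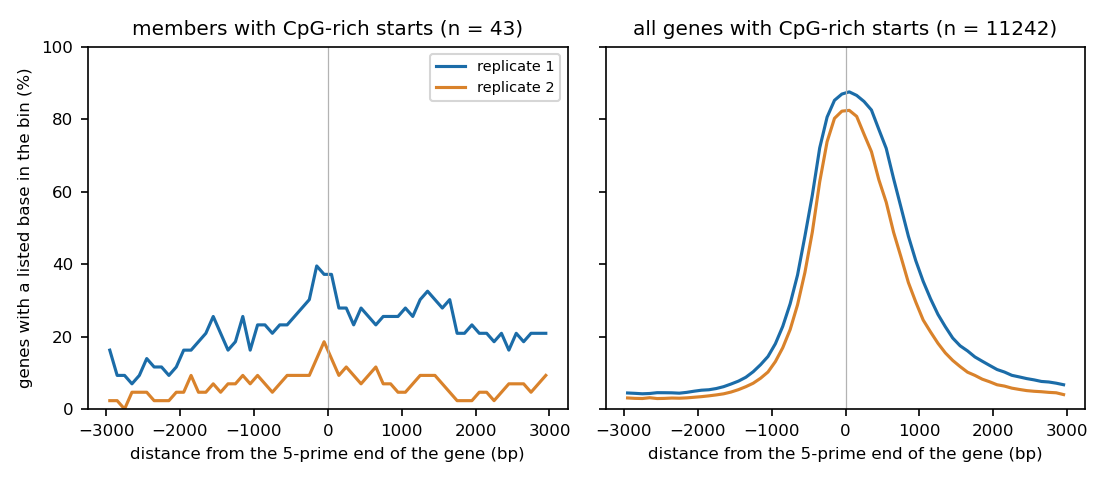
The curves give the percentage of genes with a listed base in each 100-bp bin by distance from the 5′ end, for 43 CpG-rich members (left) and all 11242 CpG-rich genes (right), in replicate 1 (blue) and replicate 2 (orange). All genes peak above 80% at the start, while the members stay at or under 39.5% in replicate 1 and spread over the whole window.

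Many members had peaks around them but none at the start. A strict peak in the body or flanks but none at a start was found for 19 members (38.8%) in replicate 1 and 23 (46.9%) in replicate 2, against 20.8% and 24.1% of all protein-coding genes. This share counts genes without a promoter peak, of which members held more. Among genes without a promoter peak alone, 19 of 27 members (70.4%) and 23 of 43 (53.5%) had a peak around them, against 56.9% and 59.2% of all such genes, so members lay higher in replicate 1 and lower in replicate 2. With CpG-rich starts only, members lay lower in both libraries: 65.2% and 48.6%, against 83.5% and 82.8% of all such genes. Members had a median of 2 and 1 strict peaks in their neighbourhoods, against 4 and 3 for all protein-coding genes. Without Irx1, Irx2, Otp and Alx4 the members' median was 1 in both libraries. No strict peak at all was present around 8 (16.3%) and 20 (40.8%) members, against 15.7% and 16.6% of all genes. In replicate 1 the members' share was thus close to that of all genes. Among CpG-rich genes the shares were 18.6% and 44.2% of members, against 0.970% and 1.72% of all. None in either library was found for 7 members, Alx1, Barhl2, Gsx2, Irx4, Isl1, Nkx6-1 and Pitx1, and for 3172 of all 21938 protein-coding genes. Of the 164 peaks in replicate 1, 62 were intergenic, 53 intronic, 23 in coding exons, 17 in UTR exons and 9 in noncoding exons by their centres.

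The number of peaks around members differed more between the libraries than it did for all protein-coding genes together. The 49 neighbourhoods held 164 strict peaks in replicate 1 and 58 in replicate 2, a ratio of 2.83, whereas for all protein-coding genes the ratio was 1.27. With the tallest 75245 peaks of replicate 1 the members' ratio was 1.5 (87 and 58 peaks) and that of all protein-coding genes 1.13. Without Irx1, Irx2, Otp and Alx4 it was 2.14 (124 and 58 peaks). Bases listed in the members' neighbourhoods gave a ratio of 2.92 (2.20 without these 4 genes), against 1.38 for all protein-coding genes. For the 39 Hox genes the ratio of peaks was 1.06 (71 and 67 peaks), and for 15 homeobox genes used in the adult cortex 1.85 (215 and 116 peaks). Over all lists read here it ran from 0.727 for 6 interneuron homeobox genes to 2.76 for 6 cofactors of LIM proteins (58 and 21 peaks). For these cofactors the ratio of listed bases was 3.41, so a high ratio was not particular to members.

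Peaks around members that replicate 2 lacked were low and CpG-rich. Of the 164 peaks, 46 overlapped a strict peak of replicate 2 and 118 did not. The 118 had a median height of 0.463 and a median CpG ratio of 0.613. The same class over the whole genome, 31029 peaks of replicate 1 alone, had a median height of 0.607 and a CpG ratio of 0.299. A base listed in replicate 2 lay in 45 of the 118 (38.1%) and in 64.9% of the genome-wide class. Without Irx1, Irx2, Otp and Alx4, 78 such peaks were left, with a median height of 0.519 and a CpG ratio of 0.676, and 39 of them held a base listed in replicate 2. In the other direction, 12 of 58 peaks of replicate 2 overlapped none of replicate 1, and 10 of these 12 held a base listed in replicate 1.

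The 5 members with the most strict peaks over both libraries were Isl2, Irx2, Barx2, Irx5 and Lhx4. Irx2 (chr13:72628820-72634198) had 17 peaks in replicate 1 and 0 in replicate 2. Its 17 peaks ran over 16525 bp with heights of 0.238 to 0.713, and none held a base listed in replicate 2. At its starts, 80.0% of the bases were listed in replicate 1 and 0 in replicate 2, where the start lay in a stretch of 186560 bp without a listed base. In replicate 1 that stretch was 439 bp.

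Isl2 (chr9:55538672-55546180) had peaks in both libraries. It had 13 peaks in replicate 1 and 8 in replicate 2, and 6 of the 13 overlapped one in replicate 2. They spanned 10368 and 8380 bp and lay mostly in the gene body. The tallest, in an intron, reached 0.983 and 0.668.

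Barx2 (chr9:31846044-31913462) had 8 and 4 peaks, and each of the 4 of replicate 2 overlapped one of replicate 1. One lay at the start, in a coding exon, one upstream at -12589 bp from the start with heights of 2.59 and 1.54, and 2 in introns toward the 3′ end with heights of 1.15 and 0.776 and of 0.970 and 0.691. Its start and upstream peaks were thus close in height in each library.

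Irx5 (chr8:92357625-92376286) had 11 peaks in replicate 1 and 1 in replicate 2. The shared one, of height 3.22 and 2.63, lay 91 bp from a start of the noncoding gene Crnde, which is transcribed next to Irx5. The other 10 had no base listed in replicate 2. Lhx4 (chr1:155698031-155751684), a pituitary and motor neuron gene, had 10 and 2 peaks, and both of those in replicate 2 overlapped one in replicate 1. These shared peaks lay 28526 and 43506 bp downstream of the start by their centres in replicate 1, and the other 8 held no base listed in replicate 2. Otp (chr13:94875602-94885130), named here after its values were seen, had 11 and 0 peaks, with 17.0% of the neighbourhood listed in replicate 1 and 0.0747% in replicate 2.

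**Figure D4:**
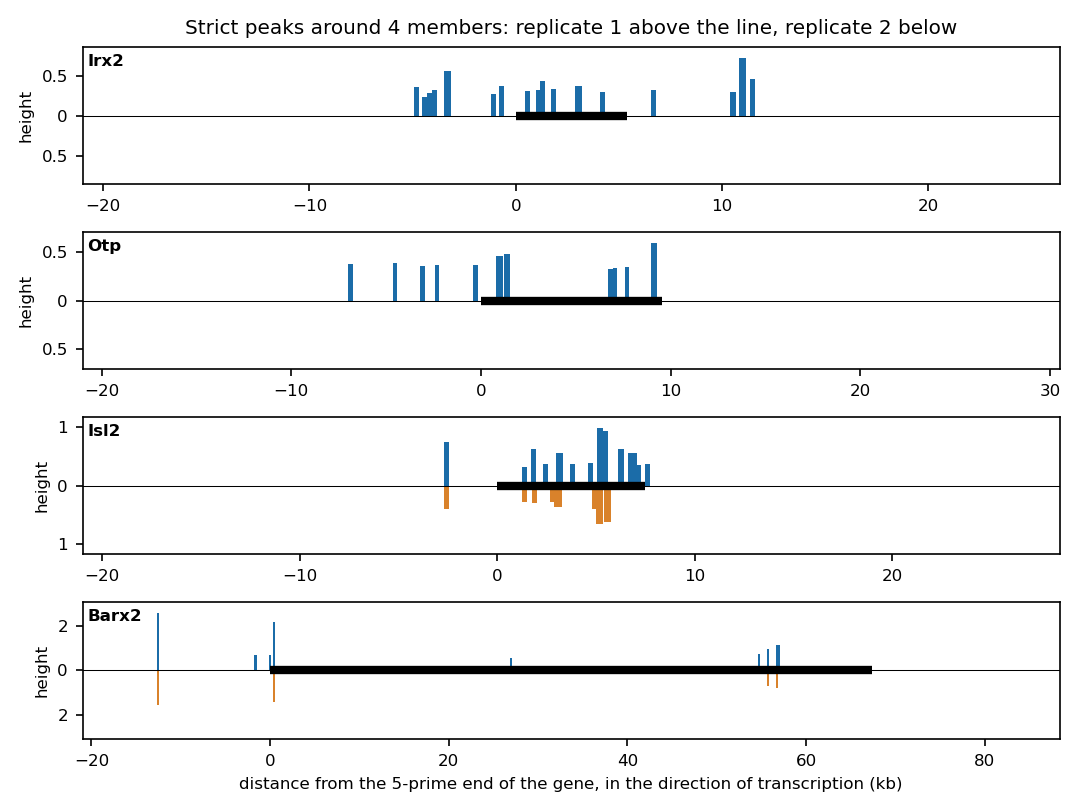
Strict peaks of replicate 1 (blue, upward) and replicate 2 (orange, downward) around Irx2, Otp, Isl2 and Barx2 by distance from the 5′ end in kb, with the authors' peak height on the vertical axis, the gene as a black bar and narrow peaks drawn wider to be visible. Irx2 and Otp have 17 and 11 peaks in replicate 1 and 0 in replicate 2, while Isl2 has 13 and 8 and Barx2 8 and 4.

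Stretches with no listed base at all lay over many CpG-rich members. The 5′ end lay in a stretch of over 50000 bp without one for 7 of 43 CpG-rich members (16.3%) in replicate 1 and 16 (37.2%) in replicate 2. Of all CpG-rich genes, 1.47% and 2.63% lay in such a stretch. Besides Isl1 and Irx2, the longest in replicate 2 held Irx4 (150573 bp), Six6 (125048 bp), Irx3 (113988 bp) and Alx1 (113730 bp). In replicate 1 the corresponding stretches measured 65992 bp at Irx4, 2158 bp at Six6, 5136 bp at Irx3 and 58843 bp at Alx1. The stretches at Irx4 and Alx1 were thus over 50000 bp in both libraries, and those at Six6 and Irx3 in replicate 2 alone. A long stretch can end near the start: Alx1 had 254 listed bases within 1000 bp of a start in replicate 2 and 0 in replicate 1.

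**Figure D5:**
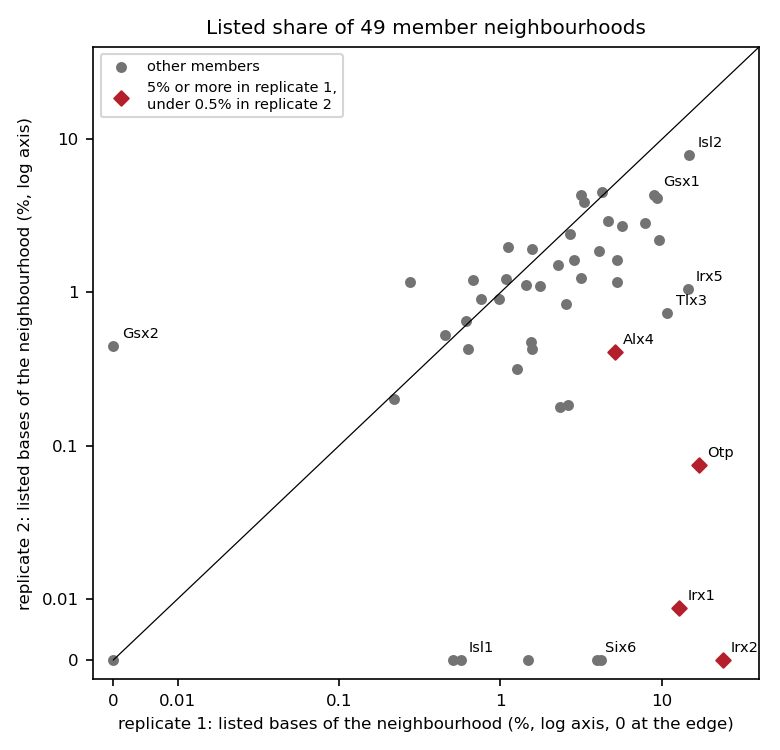
Each point is 1 of 49 member neighbourhoods, with the percentage of its bases listed in replicate 1 on the horizontal and in replicate 2 on the vertical log axis (values of 0 at the edge), and the line marks equal shares. Irx1, Irx2, Otp and Alx4 (red diamonds) have 12.9%, 23.8%, 17.0% and 5.12% in replicate 1 and under 0.5% in replicate 2.

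The tall peaks in these neighbourhoods mostly lay away from the members' starts. The tallest in both libraries stood at starts of other genes: 5.78 and 3.85 at Gbf1 near Pitx3, 4.91 and 3.78 at Dmwd near Six5, and 4.39 and 3.25 at Aatf near Lhx1. Of the 10 tallest shared peaks over 1000 bp from any start, the first lay in intergenic DNA 3009 bp upstream of Gbx1 (chr5:24530101-24530320), with heights of 4.25 and 2.47. Gbx1 itself had no listed base at its start. Another near it, in an intron of Agap3, had 2.93 and 1.93.

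A peak in a UTR exon of Elovl3 near Pitx3 (4.14 and 2.07) was taller than the Agap3 peak in both libraries. Another of the 10 lay in a UTR exon of Lhx5 (2.97 and 1.57). Meox1, with no promoter peak, had 2 upstream, 16057 bp (3.10 and 1.38) and 10927 bp (2.22 and 1.14) away. The upstream peak of Barx2 ranked among the 10 as well. The last 3 lay upstream of Nkx2-1 at -4353 bp (1.70 and 1.62), 12820 bp downstream of the start of Six3 (1.95 and 1.21) and 9004 bp upstream of Barx1 (2.04 and 0.952). Of these members only Barx2 had a promoter peak in both libraries, and Pitx3 and Lhx5 had one in replicate 1.

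Of those 10 peaks, 5 held the CTCF core word within the 300 bases around their centres. That word stands for the site of the insulator protein CTCF and reads CCA, a pair of free bases, AG, another pair of free bases and GGC. The Nkx2-1 peak is shown as an example with the word in capitals, and the Barx1 window because it was the only one of the 10 with TAATTA, a homeodomain core word, again in capitals. Both are from GRCm38.p6.
Nkx2-1 upstream peak, chr12:56541181-56541340, minus strand: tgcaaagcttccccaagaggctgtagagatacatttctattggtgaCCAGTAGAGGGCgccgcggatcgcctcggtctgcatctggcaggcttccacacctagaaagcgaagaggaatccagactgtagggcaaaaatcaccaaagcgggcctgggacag
Barx1 upstream window, chr13:48653844-48654143, plus strand: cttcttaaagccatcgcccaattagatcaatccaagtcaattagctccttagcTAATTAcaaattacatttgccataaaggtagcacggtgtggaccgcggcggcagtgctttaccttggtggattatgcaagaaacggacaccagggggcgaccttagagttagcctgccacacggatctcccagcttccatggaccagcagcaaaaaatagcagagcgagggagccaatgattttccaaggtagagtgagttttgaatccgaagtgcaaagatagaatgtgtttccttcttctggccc
The Nkx2-1 peak lies in an exon of the noncoding gene Gm26973, and the Barx1 window in intergenic DNA. The TAATTA of the Barx1 window lies outside the peak, just before its first base. That peak covers chr13:48653907-48654080 in replicate 1 and chr13:48653911-48654080 in replicate 2.

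Across all shared peaks of member neighbourhoods over 1000 bp from any start, 9 of 32 (28.1%) held the CTCF core word, against 15.7% of 39265 such peaks genome-wide in replicate 1. TAATTA was found in 1 of 32 (3.13%), against 6.35%, and TGANTCA, the AP-1 core, in 2 of 32 (6.25%), against 18.3%. Among peaks of replicate 1 alone over 1000 bp from any start, the CTCF core word was found in 1 of 63 (1.59%), against 7.04% genome-wide. The words were searched on both strands with all overlaps, in the 300 bases around each peak's centre, which can reach past the peak. In 250 bases before all RefSeq starts they occurred at 2.07% (CTCF core word), 4.84% (TAATTA) and 6.75% (TGANTCA) of promoters. With 32 and 63 peaks these shares are coarse, and a match is a description of the letters, not a site.

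Related gene lists placed the members between Hox genes and homeobox genes of the adult cortex. Of 39 Hox genes, 1 had a promoter peak in replicate 1 and 2 in replicate 2, with Hoxa7 open in both. Of 15 homeobox genes used in the adult cortex, 12 and 9 had one, among them the upper-layer gene Cux1 (1.78 and 1.18). Of 6 interneuron homeobox genes, 2 and 1 had one. Partners of the members' products were mostly open: 10 and 8 of 11 TALE cofactors, which bind DNA jointly with homeodomain proteins, 6 and 5 of 6 LIM cofactors such as Ldb1 (1.78 and 1.60), and 5 and 3 of 6 Eya and Dach genes, whose products act with sine oculis homeobox proteins. Groucho corepressors had 3 and 3 of 4, with Tle4 at 9.91 and 7.03. Polycomb genes had 14 and 13 of 14, including Ezh2, which encodes the methyltransferase, at 4.87 and 3.17. In the order given, 9 of 11, 4 of 6, 5 of 6, 3 of 4 and 14 of 14 genes of these 5 lists had CpG-rich starts. Since 94.1% and 90.0% of all CpG-rich genes had a promoter peak, open starts do not set these lists apart.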

How the data were processed

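The members and gene lists were chosen with earlier results of these data known. For each library the deposited files hold 2 peak sets, false discovery rates per base and footprints, made from that library's filtered mm10 alignments, per the labels and the descriptions deposited with the files. The aligner, the callers and their thresholds were not given in the sources used here. Peak height is a signal deposited by the authors, with no stated scaling. The authors listed a false discovery rate, a kind of q-value, where it was under 0.05. Footprints carry the constant 0.01 as deposited by the authors, and positions alone were used. The smaller peak set was used, and overlap meant 1 bp. All coordinates lay within GRCm38 chromosome lengths.

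Peaks, listed bases and footprints were counted per gene in Python 3.11.15 with pandas 2.3.3 and numpy 2.4.6, and the counting was tested on simulated data. Since all samples form 1 group, nothing was tested. Members with a promoter peak, the 5 with most peaks and 10 shared peaks, the tallest of those more than 1000 bp from every start, were named with their values. Read depth is unknown, so the precision of single peaks is too. Peaks are assigned to genes by distance. The alternatives covered peak set, window, flank, CpG class, other genes' starts and each library left out. Equal peak numbers and the leaving out of Irx1, Irx2, Otp and Alx4 were added after the data were seen.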

Additional observations from a re-analysis of the deposited data

How the results depend on the processing

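Of 34 alternatives to 6 results that kept both libraries, 28 moved a result by less than the SD between the libraries, which is wide. Leaving out 1 of 2 libraries always moves a mean by less than that SD, so those 12 alternatives say nothing of stability. The median number of strict peaks around members was 1.5. It became 3.5 with the larger peak set, 3.5 with a 50000 bp flank and 0 with no flank. The share of members with a peak around but none at a start was 42.9%, and it became 7.14% with no flank and 61.2% with a 50000 bp flank. The share with listed bases near a start was 54.1%, and it became 29.6% with rates under 0.001 only. The promoter share of 28.6% was 12.2% without replicate 1 and 44.9% without replicate 2, and 51.0% with the larger peak set, where members had 65.3% and 36.7% and all protein-coding genes 68.2% and 65.0% in replicates 1 and 2. For CpG-rich members 30.2% became 14.0% without replicate 1 and 46.5% without replicate 2, and for footprints 44.9% became 26.5% and 63.3%. No paired analysis was possible because there is 1 group. Read depth is not given, so an absent peak is not shown to be closed chromatin.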

Other observations

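Genes outside the members shared the pattern of Irx2 and Otp, and they were picked out after their values were seen. Among the 25 genes listed over at least 5% of the neighbourhood in replicate 1 and under 0.5% in replicate 2, further developmental transcription factors were Otx1 (24.6% and 0%), Pou3f2 (29.9% and 0.140%), Tbr1 (18.2% and 0.260%), Twist1 (14.4% and 0%), Fezf2 (12.1% and 0.00217%) and Olig2 (10.1% and 0%). Tbr1, Fezf2, Otx1 and Pou3f2 are known from cortical neurons, and Olig2 from oligodendrocytes, so the class held genes of the cortex as well. At Tbr1, replicate 1 had 15 strict peaks in the neighbourhood and replicate 2 had 0. Of the 25 genes, 23 had a CpG-rich start. The cause was not tested.

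None of the 39 Hox genes met that rule in either direction, which at 0.114% of all protein-coding genes says little for a list of this size. Their neighbourhoods held 71 and 67 strict peaks, although 28 of 29 CpG-rich Hox genes had no promoter peak in either library.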
